A study of Mus musculus with 5 samples.

Results

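RNA polymerase II (Pol II) was mapped in the nuclei of control regulatory T (Treg) cells expanded in mice with IL-2c, and the values given here describe where on the genome it lay in these cells. The 2 control (Ctrl) libraries were taken by their labels, out of 5 libraries listed and 4 with a column of counts, and all 56615 merged peaks of the count table were used. The other libraries were 2 from Setd2 knockout mice, which are not compared here, and 1 made with IgG, which is not analysed here. The method was CUT&Tag, in which an antibody on chromatin guides a transposase that cuts and tags the DNA beside it, so the count of a peak reflects the Pol II bound there with a background that was not subtracted.

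The control mice were of the genotype Foxp3CreSetd2flox/+ on C57BL/6. Cre was driven by Foxp3, so it acted in Treg cells, and the control cells could carry 1 deleted allele of Setd2, the methyltransferase that trimethylates lysine 36 of histone H3. Female and male mice aged 8 weeks were pooled. On 3 consecutive days they were given IL-2c, in which 5 μg of the anti-IL-2 antibody JES6-1 is bound to 1 μg of the cytokine, and splenic CD3+CD4+Foxp3-YFP+ cells were sorted 48 h later. Each library was made from 80000 nuclei, which the study counted as 1 biological replicate. Cells of 2 mice per genotype were pooled, and it was not stated whether the libraries came from separate pools, so it is not known how much of the spread between Ctrl 1 and Ctrl 2 is between animals.

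Pol II transcribes the protein-coding genes and most long non-coding RNAs. It assembles at promoters, often pauses shortly after the start, and then elongates through the gene body, so its amount at a gene reflects initiation, pausing and elongation together and is not a measure of mRNA. Treg cells restrain other T cells. They depend on the transcription factor Foxp3 and on IL-2, which signals through the IL-2 receptor and STAT5, and T cell receptor and NF-kB signals further shape their transcription.

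The promoters of 6 genes from chosen lists are printed first. Junb, Zfp36 and Nfkbia are immediate early or NF-kB genes and were among the densest of those lists. Foxp3, Ctla4 and Il2ra are among the genes that define the Treg cell. Each sequence covers 250 bases before and 50 bases after an annotated start, 300 bases in all, from RefSeq on GRCm38.p6, and is written 5′ to 3′ on the strand of the gene. Capitals mark any of 6 short motifs on either strand, which were TATAAA (a core promoter element), CCAAT (bound by NF-Y), GGGCGG (bound by Sp1 and its relatives), CCGGAAG (bound by Ets factors), TTCNNNGAA (bound by STAT factors) and TGANTCA (bound by AP-1), where N is any base and overlapping matches were all kept. All 6 windows lay inside a peak.
Junb, chr8:84978699-84978998, minus strand: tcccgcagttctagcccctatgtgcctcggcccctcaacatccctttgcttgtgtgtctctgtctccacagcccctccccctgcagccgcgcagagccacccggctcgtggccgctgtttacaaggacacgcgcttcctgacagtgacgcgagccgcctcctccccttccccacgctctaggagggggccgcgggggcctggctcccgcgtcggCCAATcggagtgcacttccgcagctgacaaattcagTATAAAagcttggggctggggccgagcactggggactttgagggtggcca
Zfp36, chr7:28379179-28379478, minus strand: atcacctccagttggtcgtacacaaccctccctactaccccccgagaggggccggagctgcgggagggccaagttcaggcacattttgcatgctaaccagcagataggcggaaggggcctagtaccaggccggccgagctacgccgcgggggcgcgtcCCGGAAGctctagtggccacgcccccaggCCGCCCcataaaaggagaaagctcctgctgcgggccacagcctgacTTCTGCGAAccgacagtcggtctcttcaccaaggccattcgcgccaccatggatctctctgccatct
Nfkbia, chr12:55492598-55492897, minus strand: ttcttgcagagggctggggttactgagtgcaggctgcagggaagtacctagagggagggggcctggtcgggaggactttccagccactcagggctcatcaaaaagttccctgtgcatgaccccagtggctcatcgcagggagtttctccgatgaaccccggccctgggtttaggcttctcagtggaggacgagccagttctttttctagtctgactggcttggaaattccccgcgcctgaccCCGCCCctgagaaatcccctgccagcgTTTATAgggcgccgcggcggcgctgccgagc
Foxp3, chrX:7579426-7579725, plus strand: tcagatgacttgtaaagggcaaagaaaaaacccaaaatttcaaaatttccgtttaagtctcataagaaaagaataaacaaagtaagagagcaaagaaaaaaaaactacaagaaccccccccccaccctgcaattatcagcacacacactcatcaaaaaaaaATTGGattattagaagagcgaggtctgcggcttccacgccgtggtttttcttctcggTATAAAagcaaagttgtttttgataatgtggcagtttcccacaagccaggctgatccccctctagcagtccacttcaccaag
Ctla4, chr1:60908775-60909074, plus strand: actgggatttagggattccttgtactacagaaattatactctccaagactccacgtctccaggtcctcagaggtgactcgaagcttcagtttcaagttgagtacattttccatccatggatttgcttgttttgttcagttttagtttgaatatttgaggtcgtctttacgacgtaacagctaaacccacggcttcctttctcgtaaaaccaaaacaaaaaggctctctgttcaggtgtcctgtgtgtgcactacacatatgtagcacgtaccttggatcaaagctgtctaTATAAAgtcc
Il2ra, chr2:11642542-11642841, plus strand: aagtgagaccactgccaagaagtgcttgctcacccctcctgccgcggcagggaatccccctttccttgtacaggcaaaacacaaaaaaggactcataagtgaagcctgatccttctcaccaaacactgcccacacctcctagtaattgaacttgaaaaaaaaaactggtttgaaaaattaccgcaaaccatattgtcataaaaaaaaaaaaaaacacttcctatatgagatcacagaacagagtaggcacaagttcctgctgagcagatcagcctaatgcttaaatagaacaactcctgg

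The Junb, Zfp36 and Nfkbia windows had a G+C content of 65.3%, 63.7% and 61.0%, and those of Foxp3, Ctla4 and Il2ra of 40.7%, 42.0% and 42.7%. The peak over the Junb promoter was 13.3 kb long and held 113 CPM per kb, where CPM is the count scaled to a library total of 1000000, in Ctrl 1 and 101 in Ctrl 2. That over the Foxp3 start printed here was 4.71 kb long and held 16.2 and 12.1 CPM per kb, and it was not the densest peak of Foxp3. The peaks over the Zfp36 and Nfkbia windows held 75.9 and 76.2 CPM per kb in Ctrl 1 and 68.9 and 66.6 in Ctrl 2. That over the Ctla4 window was 12.6 kb long and held 52.6 and 44.0, and that over the Il2ra window held 22.6 and 17.8. The window of Il2ra held none of the 6 motifs, which says only that these letters were not in these 300 bases.

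The total count over peaks was 11331274 in Ctrl 1 and 5624680 in Ctrl 2, a ratio of 2.01. The median count per peak was 89 and 48, and 49685 peaks (87.8%) had at least 20 counts in each library. Because merged peaks ran from 222 to 38145 bp, every level below is a density, CPM per kb of peak, unless it is called a summed CPM. A density is the mean over the 2 libraries, with the SD between them. The median peak density was 14.3 CPM per kb, the 90th percentile 27.7 and the 99th percentile 53.8. Peaks were given to genes by their midpoint, which had to lie in the gene body or at most 3 kb before its start, with protein-coding genes preferred, which gave 12945 genes a peak. A gene under a long peak whose midpoint lay outside it was therefore given no share of that peak, and "had a peak" below means a peak given by this rule. In addition, 4948 peaks (8.74%) were shared by several genes and cannot be credited to one of them. The reads carry no strand, so overlapping and divergent genes share their values. No test was made, since there was 1 group of 2 libraries.

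Peaks near promoters were the densest. Those whose midpoint lay within 3 kb of an annotated start made up 33.8% of the peaks and 39.6% of their length, and took 48.4% of the counts of Ctrl 1 (95% Wilson interval 48.4 to 48.5%) and 46.5% of Ctrl 2 (46.5 to 46.6%), a mean of 47.5% ± 1.36 (SD, n = 2). The interval covers counting error only, and the gap between the libraries was wider than it. Gene bodies held 39.9% and 41.3% of the counts in 47.0% of the peak length, and intergenic peaks held 11.6% and 12.2% in 13.4% of it. Summed over the class, the density was 24.5 ± 0.702 CPM per kb for promoter peaks, 17.7 ± 0.425 for gene body peaks and 18.1 ± 0.583 for intergenic peaks (SD, n = 2). By density, promoters stood above both other classes in each library, by more than the gap between the libraries. Their lead in counts depended on the window, since with a window of 1 kb promoters held 33.4% of the counts and gene bodies 52.3%, and with starts of protein-coding genes only each held 43.6%.

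**Figure D1:**
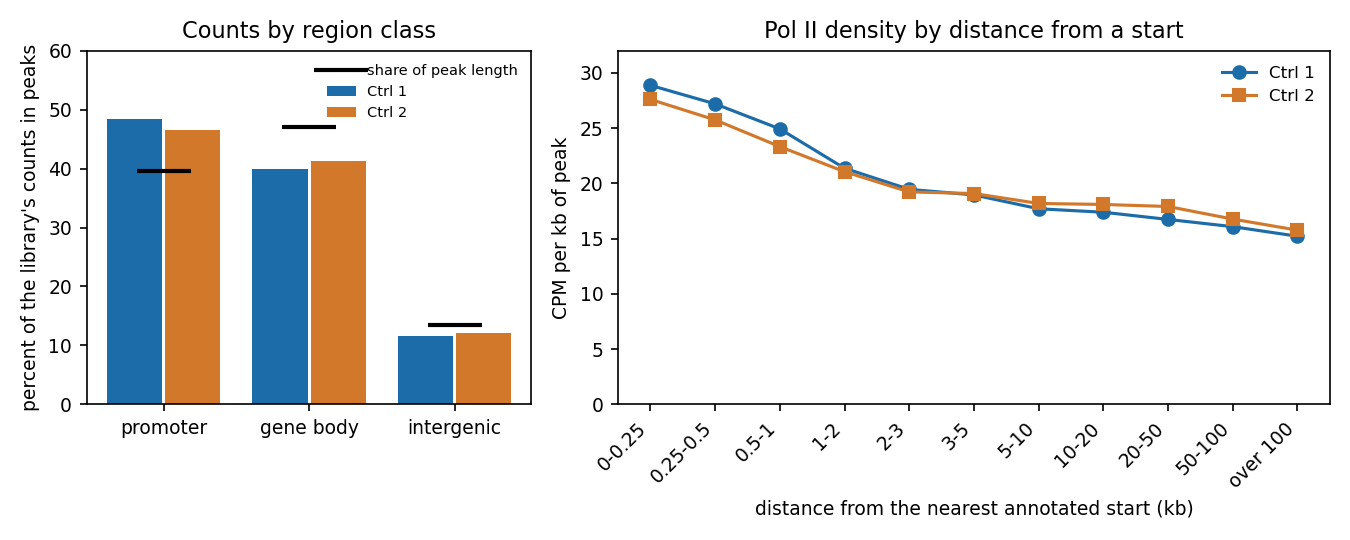
Left, percent of each control library's counts in promoter, gene body and intergenic peaks (blue bars Ctrl 1, orange bars Ctrl 2), with each class's share of the peak length as a black line. Right, CPM per kb of peak by distance of the peak midpoint from the nearest annotated start in kb, which fell from 28.2 CPM per kb (mean of both libraries) nearest to the start to 15.5 at the greatest distance.

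Summed over all peaks of a distance class, density was lower in each class farther from a start. It was 28.9 CPM per kb in Ctrl 1 and 27.6 in Ctrl 2 within 250 bp, 21.4 and 21.1 between 1000 and 2000 bp, 19.0 and 19.1 between 3000 and 5000 bp, and 15.2 and 15.8 beyond 100000 bp. The median density of single peaks, as a mean of both libraries, fell from 23.2 within 250 bp to 13.4 between 2000 and 3000 bp and was then nearly flat, at 13.3 to 13.5 in each class up to 100000 bp. Ctrl 1 was above Ctrl 2 in every class up to 3000 bp and below it in every class farther out. Of the promoter peaks, 19.6% were among the densest 10% of all peaks, against 4.58% of gene body peaks and 6.61% of intergenic peaks.

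The signal was spread over many peaks. The densest 1% of peaks (566) held 7.43% and 7.38% of the counts of Ctrl 1 and Ctrl 2 in 2.12% of the length, and 80.6% of them were at promoters. The densest 10% (5662) held 36.8% and 36.3% in 18.6% of the length, and 66.4% were at promoters. Long peaks were also dense. The 100 peaks of at least 10 kb had a median density of 36.5 CPM per kb and held 6.05% and 5.65% of the counts, whereas the 24392 peaks under 500 bp had a median of 13.0 and held 11.3% and 13.0%.

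The label was checked against 5 markers of Treg cells, and all 5 had a peak, where 53.3% of all annotated protein-coding and antigen receptor genes had one. Foxp3, the lineage transcription factor, had 4 peaks with 20.7 CPM per kb in Ctrl 1 and 18.4 in Ctrl 2. Il2ra, the alpha chain of the IL-2 receptor, had 17 peaks with 19.2 and 17.2. Both lay near the middle of the genes with a peak, whose median density was 18.4 CPM per kb. Ctla4, an inhibitory receptor that competes with CD28, had 11 peaks with 36.0 and 30.5. Ikzf2, which encodes the transcription factor Helios, had 60 peaks with 21.1 and 17.8, and Icos, a costimulatory receptor, had 11 peaks with 16.4 and 14.2. Ctla4 was the densest of the 5 in each library and Icos the least dense, and all 5 were higher in Ctrl 1. Ctla4 did not overlap any other marker between the libraries.

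As a mean of both libraries the markers had 33.2 ± 3.87 (Ctla4), 19.6 ± 1.62 (Foxp3), 19.5 ± 2.30 (Ikzf2), 18.2 ± 1.41 (Il2ra) and 15.3 ± 1.56 CPM per kb (Icos, SD, n = 2). The ranges of mean ± SD of Foxp3, Ikzf2 and Il2ra overlapped, but Il2ra was the lowest of these 3 in each library. Among the genes with a peak the 5 markers stood, in the same order, at percentile 90.7, 56.9, 56.2, 49.0 and 31.6. So 1 of 5, Ctla4, was in the top 10% of genes by density, where 10.0% of all genes with a peak are by construction, and its place there was lost in Ctrl 2 alone, where none of the 5 was, and when each peak was given to every gene it overlapped. Per kb of gene instead of per kb of peak 3 of 5 were in the top 10%. By summed CPM all 5 were in the top 10%, from 189 CPM at Icos (percentile 91.7) and 224 at Foxp3 (93.6) to 2016 at Ikzf2 (99.9).

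Within Ctla4, 1 peak of 12.6 kb over the start and the body (chr1:60908581-60921145, mm10) held 76.2% of the gene's summed CPM at 52.6 and 44.0 CPM per kb. Within Foxp3, the densest peak (chrX:7582832-7587367) held 56.3% at 28.9 and 26.7 CPM per kb, and the peak over the start printed above held 29.7%. The signal of Ikzf2 was spread instead over 60 peaks, of which the densest held 0.431%. Of the gene bodies of Ctla4 and Ikzf2, 63.3% and 64.8% were covered by peaks, against a median of 6.26% over 11546 protein-coding genes of at least 2 kb with a peak. The annotated span of Ctla4 reached farther upstream than the start used here. Peaks centred 4.35 to 21.8 kb before that start, with 9.74 to 19.4 CPM per kb, were therefore counted as its body. They entered its density, percentile and coverage, although the long peak covered the whole stretch from that start to the gene's end.

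**Figure D2:**
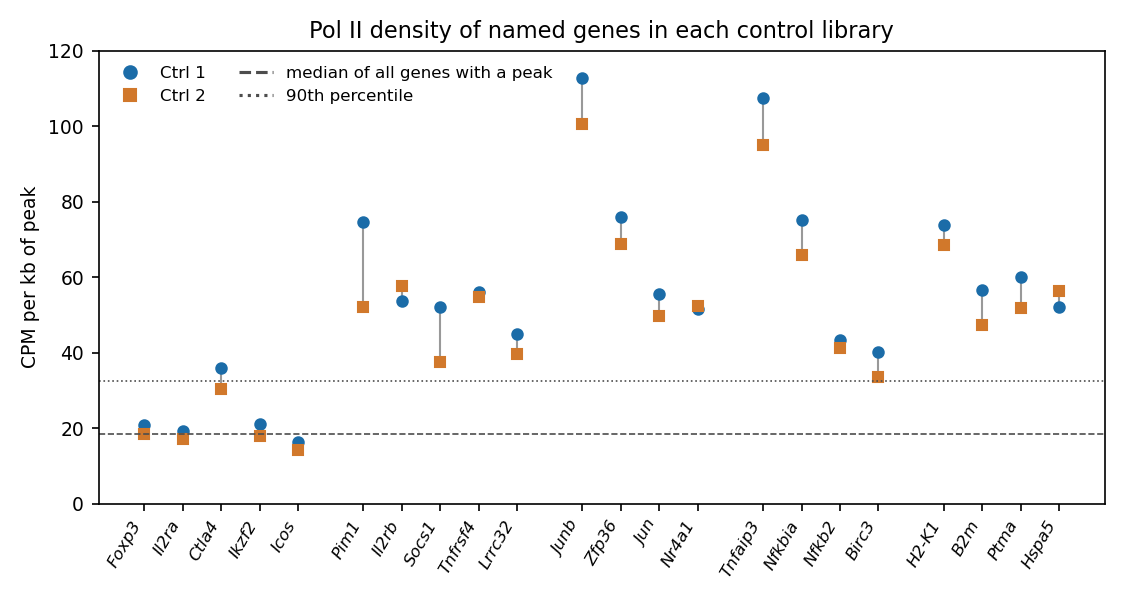
Density (CPM per kb of peak) of named genes in Ctrl 1 (blue circles) and Ctrl 2 (orange squares), joined by a line, with the median (18.4, dashed) and the 90th percentile (32.4, dotted) of all genes with a peak. The 5 Treg markers at the left lie between 14.2 and 36.0, and Junb and Tnfaip3 lie between 95.1 and 113.

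Setd2 itself, the gene with a floxed allele, had 9 peaks with 15.2 CPM per kb in Ctrl 1 and 15.6 in Ctrl 2, at percentile 32.1 of density. Reads of the deleted and the intact allele cannot be told apart in these counts.

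Immediate early genes stood highest of the gene lists by density. The lists were chosen with earlier results of these data known, so their order is a description and not independent support. Immediate early genes are switched on within minutes of a stimulus without new protein synthesis, and several encode subunits of AP-1. All 25 members had a peak, 24 of them with at least 20 counts in each library, and 16 of 25 were in the top 10% by density, with a median percentile of 95.2. By summed CPM 20 of 25 were in the top 10%, with a median percentile of 96.3. That was below the medians of the Treg markers (97.9), the NF-kB feedback genes (98.4), the Foxp3 partners (98.8) and the core T cell genes (96.4). Junb, an AP-1 subunit, led with 113 CPM per kb in Ctrl 1 and 101 in Ctrl 2. Zfp36, whose product tristetraprolin destabilises cytokine mRNAs, had 75.9 and 68.9. Jun had 55.5 and 49.6, and Nr4a1, a nuclear receptor induced by the T cell receptor, had 51.6 and 52.4. Each of these 4 had more Pol II per kb in either library than any of the 5 Treg markers had. At the low end, Ier3 had 18.8 and 8.08, from 1 shared peak with a summed CPM of 4.73, and Egr3, a zinc finger factor induced by antigen, had 17.2 and 15.1, so the list was not uniformly dense. Ctrl 1 was the higher library for 20 of 25 members, against 46.1% of all genes with a peak.

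The feedback genes of NF-kB, which are targets of this factor and restrain or process it, came next. All 10 had a peak and passed the filter of 20 counts, and 6 of 10 were in the top 10%, with a median percentile of 91.1. Tnfaip3, which encodes the deubiquitinase A20, had 107 CPM per kb in Ctrl 1 and 95.1 in Ctrl 2. Nfkbia, which encodes the inhibitor IκBα, had 75.1 and 65.9. Nfkb2, the precursor of the p52 subunit, had 43.4 and 41.1, and Birc3, a ubiquitin ligase of TNF receptor signalling, had 40.2 and 33.6. Nfkbiz had 29.1 and 22.1. Nfkbie, which encodes IκBε, had 13.1 and 14.3 in the 1 peak given to it, but a peak of 20.9 kb with 57.5 and 45.1 CPM per kb also covered its whole body and was given to its neighbour Slc35b2, so its percentile of 20.8 does not speak for the gene. In Birc3 the promoter peaks had 88.3 CPM per kb and the gene body peaks 25.5, whereas of the 2 peaks of Tnfaip3 the denser was 20.5 kb long and covered the whole gene.

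**Figure D3:**
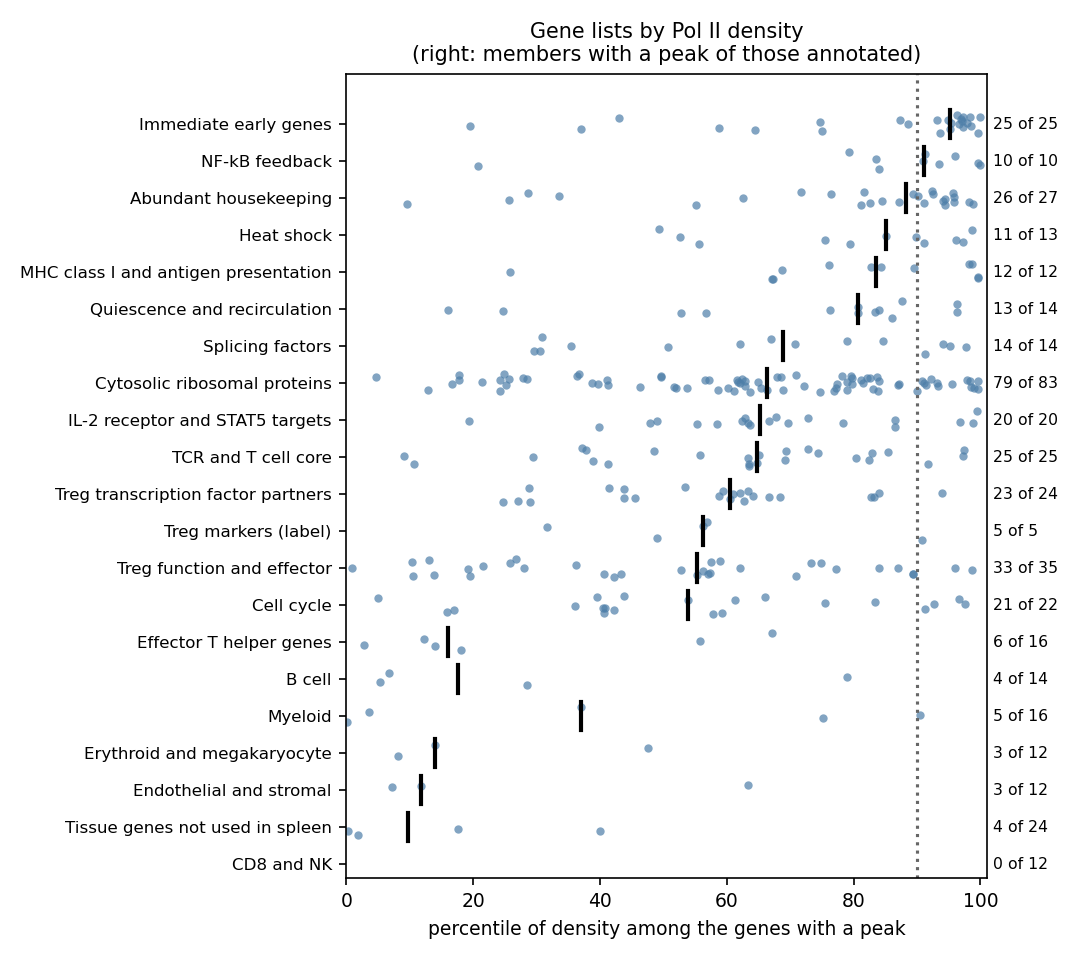
Percentile of each gene's density among the genes with a peak, by gene list (points, jittered vertically, with the median as a black bar and the 90th percentile dotted). Numbers at the right give members with a peak of those annotated, and the immediate early and NF-kB feedback lists have their medians at 95.2 and 91.1.

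Genes of the IL-2 response lay somewhat above the middle of the range. All 20 genes of the IL-2 receptor and STAT5 list had a peak, and 3 of 20 were in the top 10%, with a median percentile of 65.2. Pim1, a survival kinase induced by STAT5, had 74.5 CPM per kb in Ctrl 1 and 52.2 in Ctrl 2. Il2rb, the beta chain of the receptor, had 53.8 and 57.7, and Socs1, an inhibitor of JAK kinases, had 52.1 and 37.5. Il2rb was covered over 97.5% of its body. Pim1 and Socs1 were higher in Ctrl 1 by more than the other genes of this list named here, with SDs of 15.8 and 10.3 CPM per kb. The lowest were Jak3, the kinase of the common gamma chain, with 12.2 and 14.6, and Bcl2, an inhibitor of apoptosis, with 15.4 and 17.8.

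Genes of Treg function were spread over the whole range. Of 35, 33 had a peak, 32 passed the filter, and 2 of 33 were in the top 10%, with a median percentile of 55.3. Per kb of gene 10 of 33 were, with a median percentile of 74.5, and by the densest peak of each gene 5 of 33. Tnfrsf4, which encodes the TNF receptor OX40, had 56.0 CPM per kb in Ctrl 1 and 54.7 in Ctrl 2, from 1 peak over its whole body. Lrrc32, which encodes GARP and presents latent TGF-β, had 44.9 and 39.8. Tnfrsf1b, the TNF receptor 2, had 30.4 and 33.4, and the chemokine receptor gene Ccr8 had 31.7 and 32.0. At the low end Ccr6, a chemokine receptor of gut-homing cells that did not pass the filter, had 7.40 and 6.31, and Ebi3, a subunit of IL-35, had 11.6 and 11.6. Havcr2, which encodes TIM-3, had no peak in the table used here. By summed CPM, 13 of 33 were in the top 10%.

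Partners of Foxp3 among transcription factors lay near the middle by density and high by summed CPM. Of 24, 23 had a peak and 1 was in the top 10% by density, and 20 were by summed CPM, and the median gene was 87.9 kb long. The densest were Mef2d with 37.8 CPM per kb in Ctrl 1 and 37.4 in Ctrl 2, Rela, the p65 subunit of NF-kB, with 27.2 and 28.9, Ets1 with 28.4 and 26.9, and Foxo3 with 28.5 and 26.2. Foxp1 and Cbfb were lowest, with 14.3 ± 0.46 and 14.6 ± 3.81 CPM per kb (SD, n = 2), and Gata1 had no listed peak.

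Of the T cell receptor and core T cell genes all 25 had a peak and 3 were in the top 10%. These were the adhesion receptor Cd2 with 50.7 CPM per kb in Ctrl 1 and 44.6 in Ctrl 2, Trac, the constant segment of the T cell receptor alpha chain, with 48.3 and 45.8, and the inhibitory receptor Cd5 with 33.9 and 34.9. The beta chain segment Trbc1 had 13.4 and 9.32 and Thy1 had 12.4 and 11.0. Trbc1 shares sequence with its neighbouring copy, and only uniquely mapped reads were counted. Of the quiescence and recirculation genes 13 of 14 had a peak and 2 were in the top 10%, Klf2, which controls exit from lymph nodes, with 41.9 and 45.0, and Btg2, an antiproliferative gene that is also on the immediate early list, with 47.6 and 39.2. Ccr7, the homing receptor for lymph nodes, had 28.5 and 32.4, and Tcf7, a transcription factor of resting T cells, had 29.0 and 29.8. Btg1, the gene given no peak, lay wholly under a peak of 17.5 kb with 53.0 and 45.6 CPM per kb whose midpoint lay outside the gene and its upstream stretch.

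Genes that every cell uses also stood high. Of the abundant housekeeping genes, 26 of 27 had a peak and 12 of 26 were in the top 10%, led by Ptma (60.0 CPM per kb in Ctrl 1 and 51.7 in Ctrl 2), B2m (56.6 and 47.3, from shared peaks only) and the elongation factor gene Eef2 (38.8 and 45.3), with Tmsb10 (10.4 and 12.6) and Pgk1 (12.7 and 16.2) lowest. Of the MHC class I and antigen presentation genes all 12 had a peak and 4 were in the top 10%, led by H2-K1 (73.8 and 68.5) and H2-D1 (74.1 and 68.1), which encode classical class I heavy chains. Class I genes are near-identical in parts, so reads that map to several of them were lost or could be split. Of the heat shock genes 11 of 13 had a peak and 4 were in the top 10%, led by Hspa5, the chaperone of the endoplasmic reticulum (52.2 and 56.3), and Hspa9 (42.9 and 50.2). Hsp90ab1, a chaperone gene on both of these lists, was given no peak but lay wholly under the peak of Slc35b2 described above, and Hspb1 had none listed. The libraries differed more among heat shock genes, since Hspa8, a constitutive chaperone, had 52.4 and 32.8 and Hspa1b, a stress-induced one, had 41.6 and 25.4.

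Cytosolic ribosomal protein genes had a peak in 79 of 83 cases with a median of 21.6 CPM per kb, and 14 of 79 were in the top 10%, led by Rpl21 (67.1 in Ctrl 1 and 72.7 in Ctrl 2) and Rpl30 (70.0 and 64.3). None was in the top 10% by summed CPM, and the median gene was 3.43 kb long. Rpl10l and Rpl39l had no listed peak, and Rpl36 and Rplp1 were given none but lay wholly under peaks with 26.2 and 33.9 and with 24.7 and 27.7 CPM per kb. Replication-dependent histone genes had a peak in 55 of 67 cases and 13 of 55 were in the top 10%, led by the linker histone gene Hist1h1c (60.9 and 40.7). These genes are repeated copies that lie close together, and 18 of 55 had over 50% of their signal in peaks of their own. Of the respiratory chain genes 94 of 102 had a peak and 16 of 94 were in the top 10%. Of the cell cycle genes 21 of 22 had a peak and 4 were in the top 10%, led by Aurka (41.5 and 54.9, from shared peaks only) and the replication clamp gene Pcna (43.7 and 45.4), with Bub1 lowest (13.7 and 6.46). Of the splicing factor genes 4 of 14 and of the abundant nuclear and host lncRNAs 1 of 8 with a peak were in the top 10%, led by Srsf5 (51.1 and 47.5) and Neat1 (39.0 and 34.6, with 5.43% of its signal in peaks of its own). Of the genes named Zfp 33 of 235 with a peak were.

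Genes of other cell types mostly had no listed peak, against the same background of 53.3%, and 0 of the members given no peak lay under a peak of a neighbour. The table used here need not hold every peak, so the lack of a listed peak is not read as a lack of Pol II. None of the 12 CD8 T cell and NK cell genes had a peak (Cd8a, Cd8b1, Eomes, Ncr1, Klrb1c, Klrd1, Prf1, Gzma, Nkg7, Klre1, Xcl1 and Klrk1). Of the B cell list 4 of 14 had one, and the defining genes Ms4a1 and Pax5 did not. Ighm, the constant segment of IgM, had 23.8 CPM per kb in Ctrl 1 and 27.2 in Ctrl 2, and Cd79a, a chain of the B cell receptor, 10.4 and 10.0. Of the myeloid list 5 of 16 had one, and Lyz2, Csf1r, Itgam and Adgre1 did not. Cd68 had 31.6 and 34.1 from a peak it shares with other genes. Cd14 had 17.5 and 30.6 from 1 peak of its own, and Spi1 had 15.1 and 17.2 over 5 peaks of its own. Xcr1 had 6.64 and 12.3, and Cebpa, which did not pass the filter, had 4.11 and 4.79. The part of other cell types in the values of the Treg genes was not tested.

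Of the erythroid and megakaryocyte list 3 of 12 had a peak, and of the endothelial and stromal list 3 of 12, of which Pecam1, an adhesion molecule of endothelium, platelets and some T cells, had 31 peaks and a summed CPM of 1058. Of 24 genes of other tissues 4 had a peak, as had 5 of 1092 annotated olfactory receptor genes. The median density of those with a peak was 10.7 and 11.9 CPM per kb, near the end of the lowest 10% of genes at 11.6. Of the 16 effector T helper genes 6 had a peak, and Ifng, Il5, Il13, Il17a, Il17f, Il21, Il22, Cd40lg, Csf2 and Il9 had none listed. The other members differed widely. Cxcr5, the chemokine receptor of follicular T cells, had 13 peaks with 18.0 CPM per kb in Ctrl 1 and 20.7 in Ctrl 2 and a summed CPM of 222 (percentile 93.5), and Bcl6, the transcription factor of the same cells, had 4 peaks with 24.3 and 19.2 and a summed CPM of 186 (91.5). Il2, which Treg cells repress, had 1 peak with 11.6 CPM per kb in Ctrl 1 and 12.5 in Ctrl 2, and Il4 had 1 with 10.2 and 16.2.

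The densest place in the genome was a single peak of 5801 bp on chromosome 17 (chr17:39843033-39848833, mm10) over the annotated lncRNAs Gm26917 and Gm42418. It held 762 CPM per kb in Ctrl 1 and 606 in Ctrl 2, and 0.442% and 0.351% of all counts, against 275 CPM per kb in the next densest peak. RefSeq lists Gm42418 as a synonym of Rn18s-rs5, a pseudogene related to the 18S ribosomal RNA, and ribosomal RNA itself is made by RNA polymerase I from many repeated copies, so reads from other copies cannot be told apart from this one.

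Short peaks led after it. A gene body peak of 378 bp in Lars2, which encodes the mitochondrial leucyl-tRNA synthetase, had 267 CPM per kb in Ctrl 1 and 284 in Ctrl 2 (chr9:123461799-123462176). A gene body peak of 234 bp in Cdk8, the kinase of Mediator, had 228 and 163, and 1 of 248 bp in Camk1d had 121 and 143. Short peaks were not always alike in the libraries, since 1 of 355 bp in Zc3h7a had 165 and 77.6. The densest intergenic peak (389 bp, chr11:109011675-109012063) lay 69854 bp from the nearest start and had 191 and 137. None of these short peaks matched the mitochondrial genome or the chromosome 17 peak over at least 50 bp at 90% identity. No other repeated sequence was searched, so this does not tell whether reads from other copies were placed there. The densest promoter peaks after chromosome 17 were those of Sp1, a zinc finger factor that binds GC boxes (154 and 165 CPM per kb), Csnk1g2 (131 and 180), the divergent pair Drg1 and Sfi1 (107 and 180) and Impact (115 and 165).

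Ranked by gene, the 25 highest densities were mostly short promoter peaks. Of these 25 genes 17 had 1 peak, the median of the summed peak length of a gene was 1.16 kb, and for 7 of 25 every peak was shared with another gene. After the chromosome 17 lncRNAs came Sp1 (131 CPM per kb in Ctrl 1 and 140 in Ctrl 2), Lars2 (128 and 130, from the short peak above), the pair Smim7 and Tmem38a (94.0 and 130), Junb, Impact (88.4 and 124), Tnfaip3, Gm6410 (98.1 and 103) and Tbl2 (87.8 and 105). The list went on with Sfi1, Dnpep, Abhd11, Egf, Lrif1, Serpini1, Azi2, Slc25a28, Pja2, Cdk8, Idi1, the pair 2700097O09Rik and Srp54a, and Pdcd10, whose densities ran from 93.2 to 78.9. The percentile of Lars2, 99.98, fell to 40.7 with peaks of at least 500 bp, to 38.2 over promoter peaks and to 42.7 per kb of gene. Egf, which encodes epidermal growth factor, was listed through 1 peak of 237 bp with a summed CPM of 21.0. Junb and Tnfaip3 differed from the others in length, since their peaks summed to 13.3 and 21.2 kb, against at most 5.80 kb in the others.

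The ranking by summed CPM named other genes, and 3 of 25 were on both lists (Gm26917, Gm42418 and Tnfaip3). Its genes had a median length of 138 kb and a median of 43 peaks. The first, Gm20388, is a read-through annotation of 4435 kb whose 362 peaks were 309 times shared, so its 5990 CPM belong mostly to other genes. By the mean of both libraries Gm26917 and Gm42418 came next, each through the chromosome 17 peak they share (4418 CPM in Ctrl 1 and 3513 in Ctrl 2). Of the other genes, the lncRNA Lncpint led with 3652 CPM in Ctrl 1 and 3562 in Ctrl 2, followed by Prkch, a protein kinase C (3091 and 3073), and Itpkb, which phosphorylates inositol trisphosphate (2654 and 2757). Then came Fam107b (2203 and 2429), Vps37b, an ESCRT subunit (2194 and 2287), Dock2, an activator of Rac in lymphocytes (2131 and 2220), Tnfaip3 (2281 and 2021) and Ikzf2 (2184 and 1847). Prex1, Mbnl1, Ets1, Cyth1, Akap13, Myh9, Cx3cr1, Sema4d, Stk10, Zc3hav1, Cmip, Kdm2b, Fgfr2 and Fyn made up the rest, from 1853 to 1480 CPM. Cx3cr1 and Fgfr2 are long annotated spans of which 20.0% and 5.62% of the signal was unshared, so they do not speak for those genes. Ikzf2 was thus the only label marker among the 25.

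**Figure D4:**
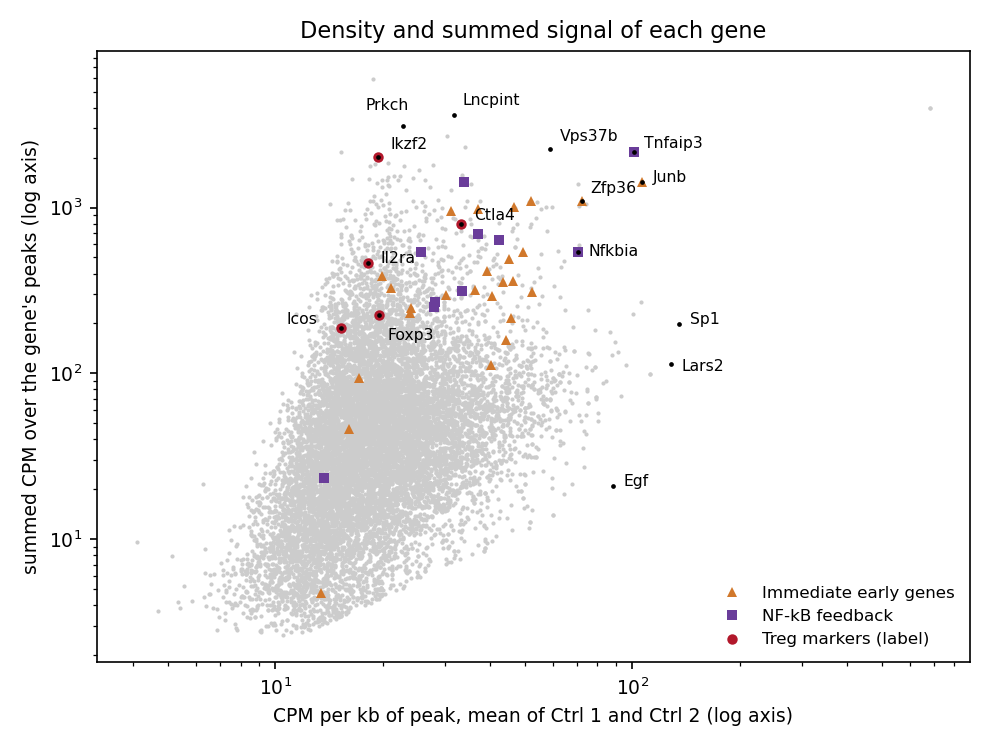
Summed CPM over a gene's peaks against its density (CPM per kb of peak), mean of both libraries (both axes log), each grey point a gene with at least 20 counts in each library. Immediate early genes (orange triangles) and NF-kB feedback genes (purple squares) extend to the right, with Junb at 107 and Tnfaip3 at 101 CPM per kb, while the Treg markers (red circles) lie between 15.3 and 33.2 CPM per kb and are high on the summed axis.

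Promoter and body could be set against each other in 5932 genes with peaks of both kinds. The promoter density was the higher in 84.3% of these genes in Ctrl 1 and 75.9% in Ctrl 2, with a median log2 ratio of 0.78 and 0.52. In 4336 genes the promoter was the higher in both libraries and in 767 the body was. Peaks were classed by their midpoint, so a long peak over a start could count as a body peak. Counting such peaks as promoter peaks gave a median log2 ratio of 0.65 over 5928 genes, against 0.64 by the midpoint. The log2 ratio of promoter to body density was 0.37 at Icos, 0.10 at Il2ra and 0.06 at Ikzf2. It is not given for Ctla4, whose long peak covers the start and was classed as body.

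By the peaks given to each gene, over 50% of the body was covered in 932 of 11546 protein-coding genes of at least 2 kb (8.07%), and the whole body in 70, and by all listed peaks in 1013 (8.77%) and 76. Immediate early genes were over 50% covered in 21 of 25 cases and fully in 11 either way. NF-kB feedback genes were in 8 of 10 and 3 by their own peaks and in 9 and 4 by all listed peaks, and Treg function genes were over 50% covered in 10 and 11 cases. Of the markers 3 of 5 were over 50% covered either way. These shares were not matched for gene length. The median immediate early gene was 5.26 kb long, against 21.2 kb over all genes with a peak. Other lists of short genes were also covered, with 37 of 79 ribosomal protein genes and 38 of 55 histone genes over 50% by their own peaks. The longest gene covered whole was Vps37b (27.6 kb), under a peak of 38.1 kb that was also the longest in the table, with 57.5 CPM per kb in Ctrl 1 and 59.9 in Ctrl 2.

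Joining peaks less than 12 kb apart gave 12044 regions, of which the top 10 held 3.28% of the signal. The first was the Lncpint region on chromosome 6 (31037543 to 31247122) with 4394 CPM in Ctrl 1 and 4366 in Ctrl 2, then the chromosome 17 peak above. The third ran over Vps37b, Abcb9 and Hip1r on chromosome 5 (3460 and 3641 CPM), the fourth over Prkch on chromosome 12 (3282 in each) and the fifth over Itpkb and Psen2 on chromosome 1 (3188 and 3307). Regions led by Sbno2 and Midn, by Pecam1 and Ddx5, by Mknk2 and Dot1l, by Tnfaip3 and by Dusp5, a phosphatase of MAP kinases, followed, with 3178 to 2569 CPM as the mean of both libraries. The Tnfaip3 region was the densest of these apart from the chromosome 17 peak, with 58.7 CPM per kb.

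Promoter letters moved with promoter density. For this, 1 window of 300 bases was read for each of 32596 annotated genes from the same build, at the annotated start nearest to its promoter peak or at its 5′ end, which need not be the RefSeq start printed above, and the 11688 genes with a promoter peak were put into 10 groups of equal size by promoter density. CCAAT was in 27.8% of the windows of the lowest 10% and 48.5% of the highest, with 38.2% over all annotated genes and 39.0% over genes with no peak. GGGCGG was in 51.4% and 70.1%, with 36.3% over all genes and 20.0% over genes with no peak. CCGGAAG was in 10.2% and 20.2%, with its highest share, 23.7%, in the sixth of the 10 groups, and 9.18% over all genes. TATAAA was in 9.15% and 5.82%, against 12.8% over all genes, TTCNNNGAA in 6.84% and 6.76%, against 8.42%, and TGANTCA in 5.99% and 3.59%, against 7.42%. These are counts of letters, which also follow base composition, since the median G+C content was 57.7% in the lowest 10% and 61.7% in the highest.

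The ratio of observed to expected CpG had a median of 0.574 in the lowest 10% and 0.826 in the highest, and 0.240 over genes with no peak. A ratio over 0.6 was found in 48.2% of the windows of the lowest 10%, 85.7% of the highest and 17.0% of genes with no peak. It was found in 71.1% of all genes with a promoter peak and 37.2% of all annotated genes. The lists differed in the same measure, since 22 of 25 immediate early genes and 23 of 26 housekeeping genes were over 0.6, against 8 of 33 Treg function genes and 2 of 5 markers. TATAAA was in 5 of 25 immediate early windows, 2 of 10 NF-kB feedback windows, 1 of 5 marker windows and 5 of 33 Treg function windows. It was in 3 of 26 housekeeping windows and in 6.80% of all genes with a promoter peak.

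Whole peaks followed the same order. Their median G+C content was 49.5% in the lowest 10% of peaks by density and 55.7% in the highest, and the share at promoters 22.4% and 66.4%. Over the chromosomes, chromosome 11 carried the most signal for its length (863 CPM per Mb in Ctrl 1 and 856 in Ctrl 2), followed by 17 (617 and 603) and 19 (601 in each), and it also had the most peaks per Mb. The lowest autosome was 14 (225 and 224), and X had 57.8 and 57.4 CPM per Mb. The median density of the peaks differed far less, from 14.0 to 14.6 CPM per kb over the autosomes and 14.8 on X, so the chromosomes differed more in the number of peaks than in their density.

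Across genes the 2 libraries ranked Pol II alike, with Pearson's r of 0.84 on log2 density and Spearman's rho of 0.85 over 12944 genes with counts in both. This is across genes, which are not independent replicates, and both libraries share the peak list, so no p is given. Of the top 10% in each library 79.0% were the same genes, and of the 25 densest 16. The SD of the log2 ratio of the libraries was 0.68 in the lowest 10% by density, where Ctrl 2 had a median of 40 counts a gene, and 0.24 in the highest, so the order of low genes was the less certain.

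**Figure D5:**
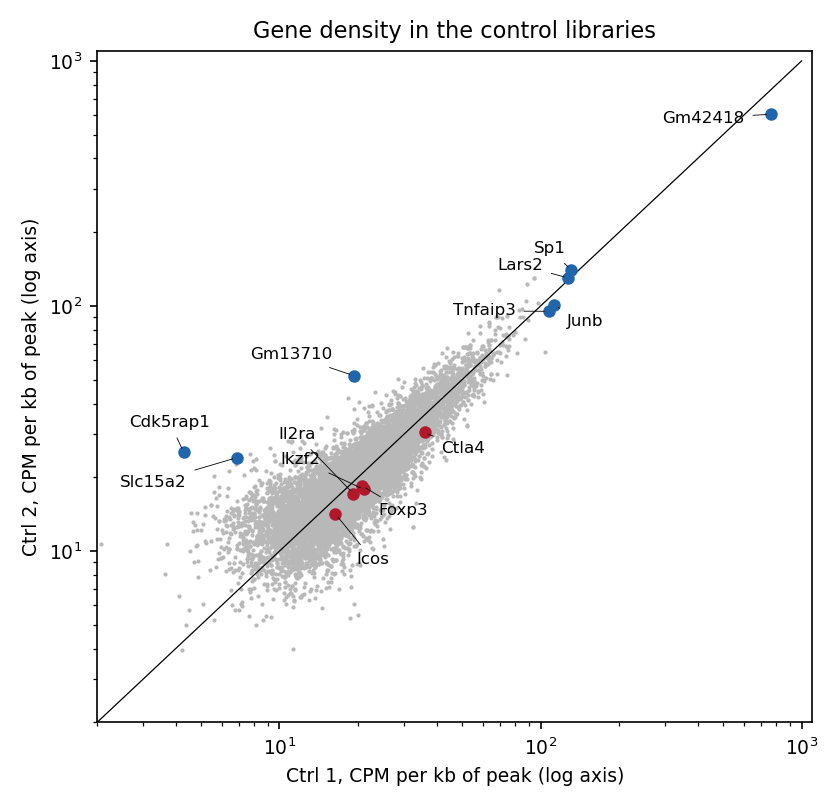
Gene density (CPM per kb of peak, log axes) in Ctrl 1 and in Ctrl 2, each point a gene with at least 20 counts in each, with the line of equal density. Red points are the 5 Treg markers, near the line and all higher in Ctrl 1. Blue points are other named genes, of which Cdk5rap1, Slc15a2 and Gm13710 stand far from the line and are higher in Ctrl 2.

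Among the genes with at least 200 counts in each library, 5 differed most between them, and all 5 were higher in Ctrl 2. Cdk5rap1, which modifies mitochondrial tRNAs, had 4.29 CPM per kb in Ctrl 1 and 25.4 in Ctrl 2 over 13 peaks. Slc15a2, a peptide transporter, had 6.86 and 24.1, and the lncRNA Gm13710 had 19.3 and 52.0. Gpsm1 had 7.95 and 18.3, and Snd1 had 16.2 and 31.4. For these genes the mean over the libraries stands for neither, and the cause of the gap was not tested.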

How the data were processed

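Pol II CUT&Tag counts of the 2 Ctrl libraries were analysed. Per the study's methods, the authors trimmed 150 bp paired reads, checked them with FastQC, mapped them to mm10 with Bowtie2, kept uniquely mapped reads without duplicates, used MACS2 with the IgG library as its control (p-value 0.01) to find peaks, merged the peaks of the libraries and counted reads per peak with bedtools; tool versions were not given in the sources used here. The deposited values are raw counts. Because peaks of the knockout libraries were merged in, a listed peak need not have been called in a Ctrl library, and no per-sample column lacked a sample (0 columns).

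CPM used each library's total over all listed peaks (11331274 and 5624680 counts) and was divided by peak length. Genes came from GENCODE vM21 (GRCm38, the assembly of mm10), promoter windows for the motif shares from the GRCm38.p6 genome, because the RefSeq promoter table held 76.0% of the genes with a promoter peak, too few for a share over genes, and printed promoters from that table. Similarity was searched with blastn 2.17.0. Python 3.11.15 with pandas 2.3.3 and numpy 2.4.6 was used, and R 4.3.3 with edgeR 4.0.16 and DESeq2 1.42.0 for alternative scalings only. The scripts were tested on simulated data with known densities. No test was made with 1 group of 2.

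Named genes were the 5 markers, the 25 highest genes by density and by summed CPM with at least 20 counts in each library, up to 4 highest and 2 lowest members of each list with members lacking a peak, the 5 densest peaks of each region class, the top 10 joined regions and the 5 genes with the widest library gap among those of at least 200 counts. Setd2 was added after its values were seen. A few genes that this rule names are not reported here, although the counts over lists include them. The members, markers and gene lists were chosen with earlier results of these data known. Alternatives covered scaling, filters, windows, peak choice, length and each library alone.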

Additional observations from a re-analysis of the deposited data

How the results depend on the processing

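No paired analysis was possible because only 1 group was described and no test was made. Of 337 values recomputed under alternatives, 240 stayed within the spread between the libraries, or within 1.5 times for a count, and 97 moved. The values of each library alone are among the 337 and also set that spread, so the region shares of each library could not move. Without them and without the percentiles of single genes, 44 of 139 values moved. None of the 337 changed sign, but shares and percentiles cannot, and the class with the most counts turned from promoters to gene bodies with the narrower window. With a promoter window of 1 kb, promoters held 33.4% of the counts, gene bodies 52.3% and intergenic peaks 14.3%, and with starts of protein-coding genes only 43.6%, 43.6% and 12.8%. Each library alone gave 46.5 to 48.4%, 39.9 to 41.3% and 11.6 to 12.2%. Ranked by CPM, the top 1% and 10% of peaks held 16.2% and 48.6% of the counts, and with peaks of at least 20 counts 6.78% and 34.7%, and ranked in each library alone 6.74 to 8.40% and 34.2 to 38.5%.

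The median density percentile of the Treg markers was 90.04 per kb of gene, 45.3 over promoter peaks, 78.7 by the densest peak and 48.5 with peaks of at least 500 bp (46.7 to 62.1 by library), so it crossed the middle of the genes, with 3 of 5 in the top 10% per kb of gene, 0 over promoter peaks, 0 with peaks of at least 500 bp, 0 with peaks given to every gene they overlap and 0 or 1 by library. That of the immediate early genes was 99.3 per kb of gene and 91.6 by the densest peak (92.6 to 96.7 by library). That of the NF-kB feedback genes was 98.6 per kb of gene, 94.2 with unshared peaks, 92.4 with peaks given to every gene they overlap, 90.9 with the filter of 20 counts, 90.7 with 1 kb upstream, 90.7 among genes of like length, 89.7 by the densest peak, 88.0 with peaks of at least 500 bp and 84.8 over promoter peaks (90.4 to 90.7 by library). That of the Treg function genes was 74.5 per kb of gene, 65.4 by the densest peak, 61.3 with unshared peaks, 50.3 with peaks of at least 500 bp, 49.2 with pooled counts and 48.0 over promoter peaks (47.5 to 49.9 by library), with 10, 5 and 4 in the top 10% by the first 3 of these.

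Of the 25 densest genes, 16 were kept with unshared peaks, 16 over promoter peaks, 11 by the densest peak and 4 per kb of gene (20 to 21 by library). Of the 25 by summed CPM 3 were kept over promoter peaks, of the 25 by promoter density 16 with unshared peaks, and of the 10 joined regions 6 at a joining distance of 5 kb. The median log2 ratio of promoter to body density was 0.52 to 0.78 by library, and 0.78 in Ctrl 1 thinned to the depth of Ctrl 2. The windows read from the genome, the thinning, the comparison within gene length and the counts by overlap of peak and gene or start were added after seeing the data. Percentiles depend on the scale chosen, the background was not subtracted, and with 2 libraries whose pools were not stated the spread between animals cannot be told. Low genes had the least depth, with a median of 40 counts in Ctrl 2 in the lowest 10%.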
